A study of Mus musculus with 6 samples.

Results

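The 10 genes described here are 3 Notch receptors (Notch1, Notch2 and Notch3), 3 of their ligands (Dll1, Dll3 and Jag1) and 4 target genes (Hes1, Hes5, Hey1 and Nrarp). They were taken by symbol from the 54446 genes listed in every library, and each symbol matched 1 gene identifier. Their RNA was counted in 6 libraries of single-cell 5′ RNA-seq, made in droplets from GL261, an established mouse glioma line, and from cultures derived from it. The GL261 group holds 2 libraries of cells labelled glioblastoma cells and kept in a differentiation medium with FCS, fetal calf serum. The GL261-GSCs group holds 4 libraries of cultures derived from GL261, labelled glioblastoma stem cells and kept in a medium of defined composition for GSCs. Accutase was used to dissociate the cells and the neurospheres, a lysis buffer with IGEPAL followed, and the labels do not settle if whole cells or nuclei entered the droplets. The labels name no other treatment and no genetic change in either group. Medium, culture form and cell selection therefore cannot be told apart. Whether the libraries of a group came from separate cultures is not stated, so p-values measure only the spread between these libraries, which may be technical.

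Notch receptors sit at the cell surface and are activated by Delta-like and Jagged ligands on neighbouring cells. Binding exposes the receptor to the sheddase ADAM10 and then to gamma-secretase, and the freed intracellular domain joins the DNA-binding protein RBPJ and a Mastermind coactivator to switch on target genes. The Hes and Hey targets are repressors that hold back proneural factors and so keep neural progenitors from differentiating, while Nrarp feeds back on the pathway by destabilising the receptor's intracellular domain. In the developing brain, differentiating cells carry Delta-like ligands and their Notch-active neighbours remain progenitors.

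A unique molecular identifier (UMI) marks 1 captured RNA molecule. Each library held 80899005 to 121309232 UMIs, of which 33320530 to 79472306 lay in called cells. Called cells numbered 4264 to 7275 per library, with a median depth per cell of 6670 UMIs in GL261-GSCs replicate 4, the shallowest, and of 10638 to 15477.5 UMIs elsewhere. In GL261-GSCs replicate 4, 41.2% of UMIs were in cells, and in the other libraries 56.7% to 65.7%. Within the GL261-GSCs group, the first 2 replicates resembled each other more (chi-square per degree of freedom 70.1) than replicates 3 or 4 (147 to 216), which in turn resembled each other (44.8). Pairs of libraries shared 32 to 59 cell barcodes, where chance gives 26.1 to 57.9. Summed levels of 6 glioma and precursor markers (Sox2, Olig2, Nes, Pdgfra, Sox10 and Cspg4) were 1477 to 1896 CPM (UMIs per 1e6 UMIs of a library's cells) in all 6 libraries. The members of this sum moved in different directions: edgeR called Olig2, from a mean of 0.467 CPM in GL261 to 557 CPM in GL261-GSCs, Pdgfra (6.40 to 124) and Sox2 (67.1 to 123) higher and Nes (1224 to 427) lower. The 3 astrocyte markers, with Aqp4 at 0 in all libraries, summed to 8.34 and 7.85 CPM in GL261 and to 0 to 0.0549 CPM in GL261-GSCs, and Aldh1l1 and Gfap were called lower. Their part in the Hes1, Nrarp, Jag1 and Notch2 values was not tested. The 5 microglia and macrophage markers summed to 12.86 and 13.01 CPM in GL261, nearly all of it Csf1r, and to 0.192 to 0.349 CPM in GL261-GSCs.

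Levels are CPM over the called cells, with library sizes scaled by TMM, a trimmed mean of expression ratios. They count the 5′ ends of transcripts, so levels of different genes are not compared. A log2 fold change is GL261-GSCs over GL261 from edgeR's quasi-likelihood test, with its SE, and a gene is called when its p-value, adjusted by Benjamini-Hochberg over the 18439 genes tested, is under 0.05. The background share of calls was 29.9% of all genes, with 15.8% higher in GL261-GSCs and 14.1% lower. All 10 Notch genes passed the filter on low counts, and 8 were called, 4 higher (Dll1, Dll3, Notch3 and Hes5) and 4 lower (Notch2, Jag1, Hes1 and Nrarp). The other 2 genes, Notch1 and Hey1, were not called. With GL261 replicate 1 or replicate 2 left out, 6 of the 10 were called, and calls over all genes went from 5514 to 1972 and 1817. In all 8 called genes every GL261-GSCs library lay on the same side of both GL261 libraries, which was also the case for 56.7% of all genes tested. The median log2 fold change of the 10 genes was 0.65, beside 0.04 for all genes. With 4 genes called higher and 4 lower, this median lies midway between Notch1 and Hey1, the 2 genes not called. A summed level cannot tell fewer expressing cells from less RNA per cell, so shares of cells at matched depth follow the levels below.

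**Figure D1:**
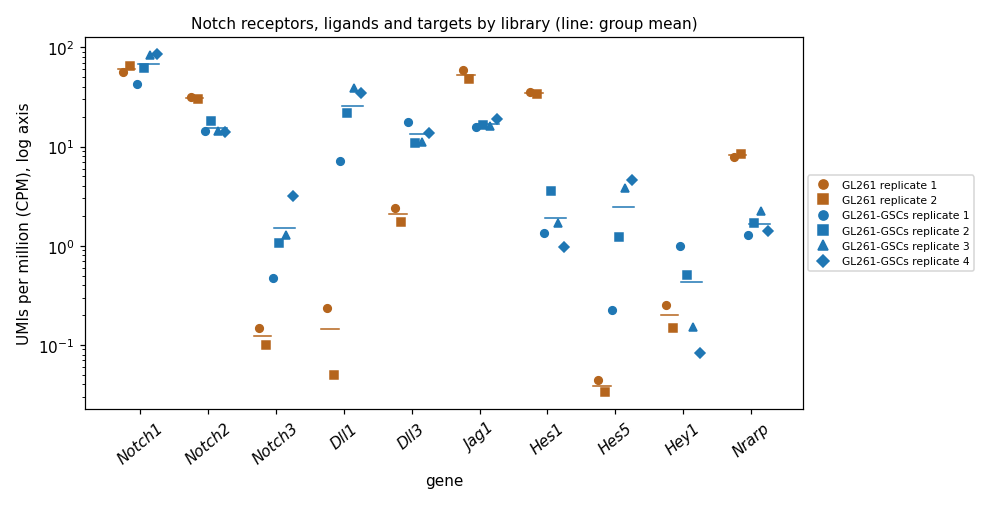
Level of each of the 10 Notch genes (CPM, log axis) in the 2 GL261 libraries and the 4 GL261-GSCs libraries, with a line at each group mean. Jag1, Hes1, Nrarp and Notch2 lie lower in every GL261-GSCs library, Dll1, Dll3, Notch3 and Hes5 lie higher, and Notch1 and Hey1 overlap.

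Among the receptors, the levels of Notch1 overlapped between the groups, Notch2 was about 2.04-fold lower in GL261-GSCs, and Notch3 rose from a trace to a low level. Notch1, a receptor of neural stem cells, lies on the minus strand at chr2:26457903-26516663 (GRCm38). Its level was 56.7 and 64.7 CPM in the 2 GL261 libraries. GL261-GSCs had 42.3, 62.0, 83.4 and 86.5 CPM of Notch1 in replicates 1 to 4. Replicate 1 lay below both GL261 libraries, replicates 3 and 4 above them, and the groups overlapped. The group means were 60.7 ± 5.71 (SD, n = 2) and 68.5 ± 20.6 (SD, n = 4), and the log2 fold change of 0.17 (SE 0.29) was not called by edgeR (adjusted p = 0.678). The spread of Notch1 within GL261-GSCs thus exceeded the difference between the groups.

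Notch2 lies on the plus strand at chr3:98013527-98150361. GL261 had 31.5 and 30.5 CPM of Notch2, and GL261-GSCs replicates 1 to 4 had 14.3, 18.1, 14.4 and 14.0 CPM. All 4 GL261-GSCs libraries were below both GL261 libraries, with replicate 2 apart from the other 3. Notch2 fell by 1.03 on the log2 scale (SE 0.15), with an edgeR adjusted p of 0.00356. Chromosome 3 has 516 tested genes with an average log2 CPM of at least 2. Their median log2 ratios to GL261 were -0.54, -0.07, -0.13 and -0.23 in replicates 1 to 4. Over the genes of all chromosomes at or above that level the medians were -0.12 to -0.0034. The part of chromosome 3 in the Notch2 value was not tested.

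Notch3, a receptor best known from mural cells of vessels and also found in neural progenitors, lies on the minus strand at chr17:32120820-32166852. GL261 had 0.148 and 0.0994 CPM of Notch3, and GL261-GSCs had 0.470, 1.06, 1.29 and 3.19 CPM. Every GL261-GSCs library was above both GL261 libraries, and replicate 4 was highest. The counts behind these levels were 16 UMIs in GL261 and 327 in GL261-GSCs. The log2 fold change was 3.56 (SE 0.88), with an edgeR adjusted p of 0.0233. The call of Notch3 did not survive leaving out either GL261 library (adjusted p = 0.126 without replicate 1 and 0.164 without replicate 2). Without GL261-GSCs replicate 4, the shallowest library, the log2 fold change was 2.93 and remained called (adjusted p = 0.0147). The mural and fibroblast markers Rgs5, Kcnj8 and Dcn summed to 0 to 0.119 CPM in GL261 and to 0.193 to 0.549 CPM in GL261-GSCs, and their part in the Notch3 value was not tested. Chromosome 17, which also carries Dll1, has 543 tested genes with an average log2 CPM of at least 2. Their median log2 ratios to GL261 were -0.01, 0.14, 0.32 and 0.30 in replicates 1 to 4.

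The ligands moved in opposite directions: Jag1, the Jagged ligand of the set, was about 3.16-fold lower in GL261-GSCs, whereas the Delta-like ligands Dll1 and Dll3 were higher. Dll1, a ligand that activates Notch receptors on adjacent cells, lies on the minus strand at chr17:15367354-15376872. GL261 replicates 1 and 2 had 0.237 and 0.0497 CPM of Dll1, from 16 and 3 UMIs. GL261-GSCs replicates 1 to 4 had 7.20, 21.6, 38.6 and 34.4 CPM, from 475, 1567, 3087 and 1251 UMIs. The gene was nearly undetected in serum, present in every GL261-GSCs library, and lowest there in replicate 1. Its log2 fold change was 7.42 (SE 1.04), with an edgeR adjusted p of 0.00277. The size of the Dll1 change depended on which GL261 library was kept, at 8.93 without replicate 1 and 6.73 without replicate 2. In GL261-GSCs replicate 2, 1 cell held 41 of the Dll1 UMIs and the next cell 12.

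Dll3, a divergent Delta-like protein that acts within the cell as an inhibitor of Notch signalling and is expressed in many gliomas, lies on the minus strand at chr7:28293553-28302238. GL261 had 2.41 and 1.72 CPM of Dll3, and GL261-GSCs had 17.5, 10.9, 11.1 and 13.8 CPM. All 4 GL261-GSCs libraries were above both GL261 libraries, and here replicate 1 was the highest. The log2 fold change was 2.68 (SE 0.31), with an edgeR adjusted p of 0.00128. Over the 766 tested genes of chromosome 7 with an average log2 CPM of at least 2, the median log2 ratio to GL261 was -0.37 to -0.25.

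Jag1 lies on the minus strand at chr2:137081456-137116644. GL261 had 58.9 and 47.6 CPM of Jag1, and GL261-GSCs had 15.6, 16.6, 16.0 and 19.1 CPM. The 4 GL261-GSCs libraries were close together and all below the GL261 libraries. Jag1 fell by 1.66 on the log2 scale (SE 0.15), with an edgeR adjusted p of 4.85e-04.

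Of the targets, Hes1 and Nrarp were lower in GL261-GSCs in all 4 libraries, Hes5 was higher, and Hey1 was not called. RefSeq (GRCm38.p6) promoter windows, from 250 bases before to 50 after a gene's start, were at hand for 8 of the 10 genes, in 9 windows because Dll1 has 2 starts. Hes1 and Hey1 had no window and were not searched. They were searched on both strands for TGGGAA, the core of the RBPJ site (TTCCCA on the opposite strand), and for 2 sequences that Hes and Hey type repressors are known to bind, CACGTG and CACNAG. The RBPJ core was found in 1 of the 9 windows, that of Hes5, which held 2 matches, and in 25.6% of 32851 promoters of the same length. CACGTG was found in 1 of the 9, that of Nrarp, against 7.15% of all promoters, and CACNAG in 5 of the 9 (Dll1, Notch1, Notch2, Notch3 and Nrarp) against 42.5%. CACNAG and CACGTG do not share a match. The ends of the Notch3 window and of 1 Dll1 window were not found in an annotated transcript of their gene. That Dll1 window, chr17:15376883-15377182, lies outside the Dll1 coordinates given above. It holds the Dll1 match to CACNAG, which lies after the window's start of the gene. The 250 bases before the start of these 2 targets that moved in opposite directions are shown 5′ to 3′ on the gene's strand, chr4:154960673-154960922 (plus) for Hes5 and chr2:25180508-25180757 (plus) for Nrarp, with the RBPJ core on either strand (Hes5) or the CACGTG match (Nrarp) in capitals.
Hes5: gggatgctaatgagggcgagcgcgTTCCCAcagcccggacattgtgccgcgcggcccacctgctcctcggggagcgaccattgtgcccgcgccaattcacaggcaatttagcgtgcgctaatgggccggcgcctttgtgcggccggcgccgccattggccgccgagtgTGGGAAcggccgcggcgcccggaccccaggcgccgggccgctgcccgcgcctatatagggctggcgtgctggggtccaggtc
Nrarp: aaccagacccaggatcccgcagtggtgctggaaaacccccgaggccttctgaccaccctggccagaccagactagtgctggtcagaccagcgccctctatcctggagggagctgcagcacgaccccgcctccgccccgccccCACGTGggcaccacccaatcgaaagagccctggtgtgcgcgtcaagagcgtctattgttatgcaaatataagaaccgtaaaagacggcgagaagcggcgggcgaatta
The Hes5 matches begin 226 and 82 bases before the start, the first on the opposite strand and the second on the gene's own. The Nrarp match to CACGTG begins 108 bases before the start. A match of letters is a description and not a measured binding site.

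Hes1, a repressor and classic Notch target that also responds to growth factor and BMP signals, lies on the plus strand at chr16:30064384-30067796. GL261 had 35.6 and 33.7 CPM of Hes1, and GL261-GSCs had 1.33, 3.59, 1.71 and 0.961 CPM. The GL261 libraries were close together and far above the GL261-GSCs libraries, among which replicate 2 was highest. Hes1 fell by 4.17 on the log2 scale (SE 0.47), an 18.0-fold difference, with an edgeR adjusted p of 0.00125.

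Nrarp lies on the plus strand at chr2:25180758-25183339. GL261 had 7.92 and 8.35 CPM of Nrarp, and GL261-GSCs had 1.27, 1.71, 2.25 and 1.40 CPM. The groups did not overlap, and Nrarp fell by 2.29 on the log2 scale (SE 0.27) with an edgeR adjusted p of 0.00144. The antisense gene Gm38287 overlaps Nrarp, with 246 GL261 UMIs and 99 GL261-GSCs UMIs beside 1039 and 439 for Nrarp. Whether counting used strand is not stated, so reads of this pair may not be separable.

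Hes5, a repressor that depends closely on Notch signalling in neural stem cells, lies on the plus strand at chr4:154960923-154962371. It had 3 and 2 UMIs in GL261 replicates 1 and 2, the 3 of replicate 1 all in 1 cell, which is 0.0444 and 0.0331 CPM. GL261-GSCs replicates 1 to 4 had 15, 89, 305 and 169 UMIs, which is 0.227, 1.23, 3.81 and 4.64 CPM. Every GL261-GSCs library was above both GL261 libraries, and replicates 3 and 4 were well above replicate 1. The log2 fold change was 5.91 (SE 1.48), with an edgeR adjusted p of 0.0247. That call of Hes5 was lost with limma-voom (adjusted p = 0.1315), without GL261 replicate 1 (0.147) or replicate 2 (0.161), and without GL261-GSCs replicate 3 (0.0517).

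Hey1, a further repressor of this family known in vessels and neural progenitors, lies on the minus strand at chr3:8663359-8667256. GL261 had 0.252 and 0.149 CPM of Hey1, from 26 UMIs in all. GL261-GSCs had 0.986, 0.511, 0.150 and 0.0824 CPM, from 117 UMIs. Replicates 1 and 2 lay above the GL261 libraries, and replicates 3 and 4 did not. The log2 fold change of 1.12 (SE 0.95) was not called by edgeR (adjusted p = 0.407), and without GL261-GSCs replicate 1 it was 0.37 (0.732). The order of the GL261-GSCs libraries for Hey1 was the reverse of that for Hes5.

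**Figure D2:**
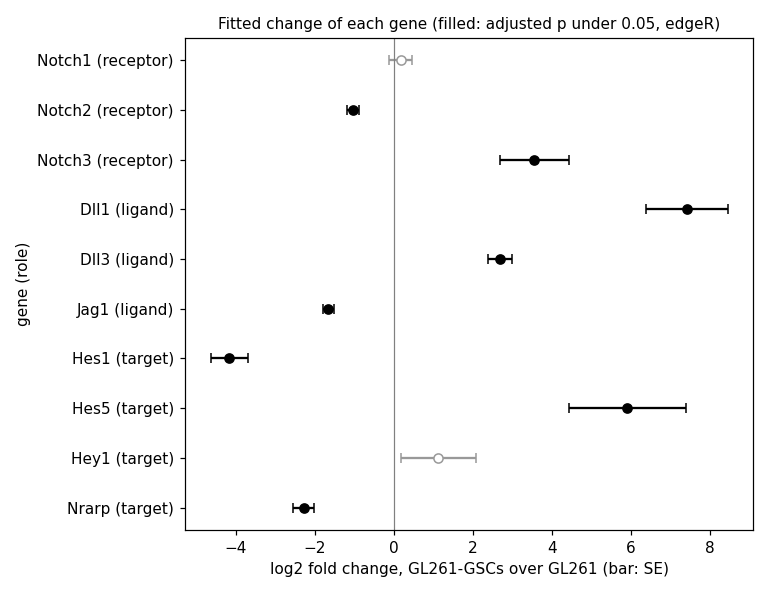
Log2 fold change of each of the 10 genes, GL261-GSCs over GL261, with bars of 1 SE, from edgeR's quasi-likelihood test on 6 libraries. Filled symbols have an adjusted p under 0.05: 4 lie above 0 (Dll1 at 7.42, Hes5, Notch3 and Dll3) and 4 below (Hes1 at -4.17, Nrarp, Jag1 and Notch2).

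To compare how many cells carried each RNA, every called cell was thinned at random to 2000 UMIs, and cells that still held a UMI of the gene were counted. Beside this share stands the share that free RNA alone would give, judged by the content of barcodes holding 100 UMIs or more but fewer than 1000. With 15 ways to split 6 libraries, the exact permutation test (2-sided) cannot give a p below 0.133. Notch2, Notch3, Dll1, Dll3, Jag1, Hes1, Hes5 and Nrarp all reached that value, with every GL261-GSCs share on one side of both GL261 shares. After Benjamini-Hochberg adjustment over the 10 genes their p was 0.167. How common such a separation in shares is among all genes was not tested. In CPM it was seen for 56.7% of all genes tested. The cells of a library are not replicates, and the 95% exact binomial intervals below cover counting error only.

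Jag1 was found in 10.0% and 8.94% of thinned GL261 cells and in 3.40%, 3.68%, 3.37% and 3.86% of thinned GL261-GSCs cells, where free RNA would give 0.0573% to 0.355% over the 6 libraries. Hes1 was found in 6.34% and 5.26% of GL261 cells, and in 0.399%, 0.579%, 0.357% and 0.199% of GL261-GSCs cells. Free RNA alone would give Hes1 shares of 0.0129% to 0.357%, the highest in GL261 replicate 1. At full depth a Hes1 UMI was seen in 30.9% and 27.8% of GL261 cells and in 0.665% to 3.73% of GL261-GSCs cells. The free RNA shares given here are for thinned cells, and at full depth free RNA would give higher shares too. Hes1 in serum was thus spread over many cells, and in GL261-GSCs it was seen in few cells at this depth. Nrarp was found in 1.44% and 1.36% of GL261 cells and in 0.258%, 0.324%, 0.605% and 0.288% of GL261-GSCs cells, beside 0.00976% to 0.0643% from free RNA.

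Dll1 was found in 3 of 4808 and 1 of 5002 thinned GL261 cells, 0.0624% (95% interval 0.0129% to 0.182%) and 0.0200% (0.000506% to 0.111%). In GL261-GSCs replicates 1 to 4 the Dll1 share was 1.85%, 4.48%, 9.04% and 8.36%, where free RNA would give 0.0446%, 0.117%, 0.308% and 0.705%. Dll3 was found in 0.478% and 0.400% of GL261 cells and in 2.67%, 1.91%, 2.49% and 2.79% of GL261-GSCs cells, beside 0.00815% to 0.280% from free RNA. Both Delta-like ligands were thus detected in more GL261-GSCs cells, and the Dll1 share varied more among the 4 libraries than the Dll3 share.

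Hes5 was found in 0 of 4808 and 0 of 5002 thinned GL261 cells, which allows shares of up to 0.0624% and 0.0600%. In GL261-GSCs the Hes5 share was 0.0235%, 0.290%, 0.509% and 0.820% in replicates 1 to 4, beside 0.00633%, 0.0177%, 0.0476% and 0.0944% from free RNA. The replicate 1 value is 1 cell, with an interval of 0.000594% to 0.131%, so it was not separable from GL261 at this depth. Among thinned cells with at least 5000 UMIs the Hes5 shares of the groups overlapped (exact permutation p = 0.40). Notch3 was found in 0.0624% and 0.0400% of GL261 cells and in 0.141%, 0.239%, 0.344% and 0.709% of GL261-GSCs cells, beside 0.000266% to 0.0506% from free RNA.

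Notch1 was found in 10.8% and 11.4% of GL261 cells and in 8.65%, 12.8%, 17.4% and 19.3% of GL261-GSCs cells, with overlap between the groups (exact permutation p = 0.533). Free RNA would give a Notch1 share of 1.83% in GL261-GSCs replicate 4 and at most 0.399% in the other libraries. Notch2 was found in 5.95% and 6.18% of GL261 cells and in 3.24% to 4.53% of GL261-GSCs cells, beside 0.0651% to 0.302% from free RNA. Hey1 was found in at most 0.188% of the cells of any library (exact permutation p = 0.667), beside 0.00185% to 0.0145% from free RNA.

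**Figure D3:**
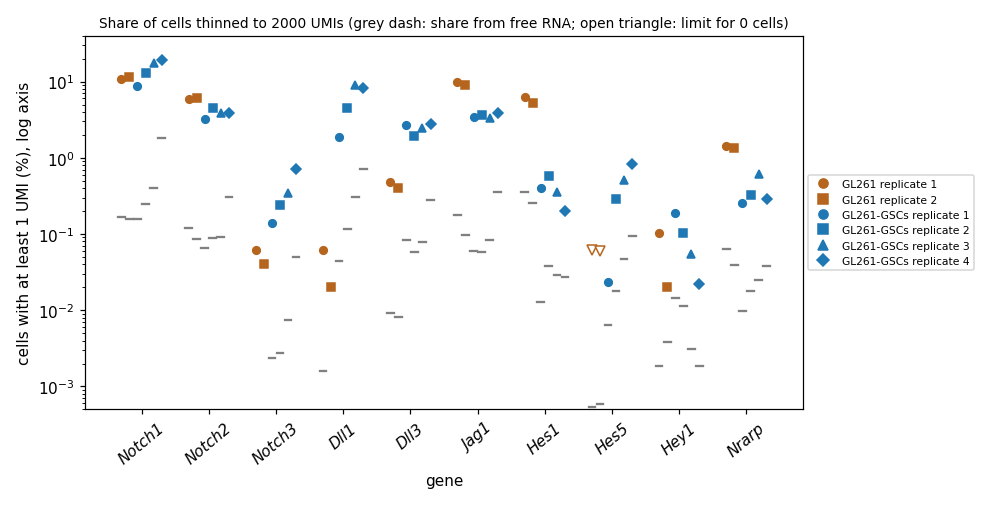
Share of called cells that held a UMI of each gene after thinning to 2000 UMIs (%, log axis) in the 6 libraries. Grey dashes mark the share that free RNA would give (the lowest and those at 0 are off the axis) and open triangles the limit for the 2 GL261 libraries with 0 Hes5 cells; Hes1 and Jag1 are seen in more GL261 cells, Dll1, Dll3 and Hes5 in more GL261-GSCs cells.

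Hes5 UMIs were unevenly spread over cells. In GL261-GSCs replicates 2, 3 and 4 the 10 cells with the most Hes5 held 57.3%, 29.5% and 45.6% of all Hes5 UMIs of the library. The variance of Hes5 UMIs per thinned cell was 1.40, 2.45 and 1.80 times its mean in these libraries, where counting alone gives about 1. Without the cell with the most Hes5 it was 1.11, 2.08 and 1.63 times. The same ratio without the leading cell was 0.995 and 0.997 for Hes1 and 0.997 and 1.04 for Nrarp in replicates 2 and 3. Hes1, with 35 UMIs in replicate 4, had 42.9% of them in 10 cells there. For Dll1, again without its leading cell, the ratio was 1.06 to 1.15 in the 4 GL261-GSCs libraries. Dll1 UMIs thus lay closer to an even spread over cells than Hes5 UMIs in replicates 3 and 4.

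GL261-GSCs cells with at least 1 Hes5 UMI were compared with all other cells of their library, a description chosen after the values were seen and with no test. The cells were picked at full depth without a correction for free RNA, and the part of free RNA in their choice was not tested. Replicates 2, 3 and 4 held 48, 123 and 74 such cells, and replicate 1 held 11 and is left out. Their median depth was close to that of the other cells, 12061, 10522 and 7134 UMIs beside 11886, 10643 and 6661. Nrarp stood at 19.1, 40.2 and 21.97 CPM in Hes5-positive cells and at 1.61, 1.60 and 1.19 in the others, ratios of 11.8, 25.1 and 18.5. These Nrarp values come from 12, 55 and 12 UMIs, with 95% counting intervals of 9.86 to 33.3, 30.3 to 52.4 and 11.4 to 38.4. A Nrarp UMI was seen in 9 of 48, 33 of 123 and 10 of 74 Hes5-positive cells, 18.8%, 26.8% and 13.5%, and in 1.75%, 1.496% and 0.766% of other cells. Nrarp was thus lower in GL261-GSCs as a whole, and higher in those of their cells that carried Hes5 than in the remainder.

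Hes1 stood at 7.95, 10.97 and 9.15 CPM in the Hes5-positive cells of replicates 2 to 4 and at 3.67, 1.56 and 0.915 in other cells, from 5, 15 and 5 UMIs. The counting intervals of these Hes1 levels were 2.58 to 18.5, 6.14 to 18.1 and 2.97 to 21.4 in replicates 2 to 4. Such intervals treat the UMIs of a library as independent and cover counting error only. They are therefore no test against the other cells. Notch3 had ratios of 1.45, 5.47 and 5.05, from 1, 9 and 9 UMIs. Dll1 had ratios of 0.709, 1.13 and 1.32, Jag1 0.830, 0.9504 and 0.873, and Notch1 1.32, 1.44 and 1.11. Dll3 had ratios of 0.845, 3.06 and 2.11. Nrarp was thus higher beside Hes5 in all 3 libraries. Hes1, Notch3 and Dll3 had ratios above 2 in replicates 3 and 4, while in replicate 2 Dll3 was lower and Notch3 rested on 1 UMI. Dll1 and Jag1 lay nearer the level of other cells.

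**Figure D4:**
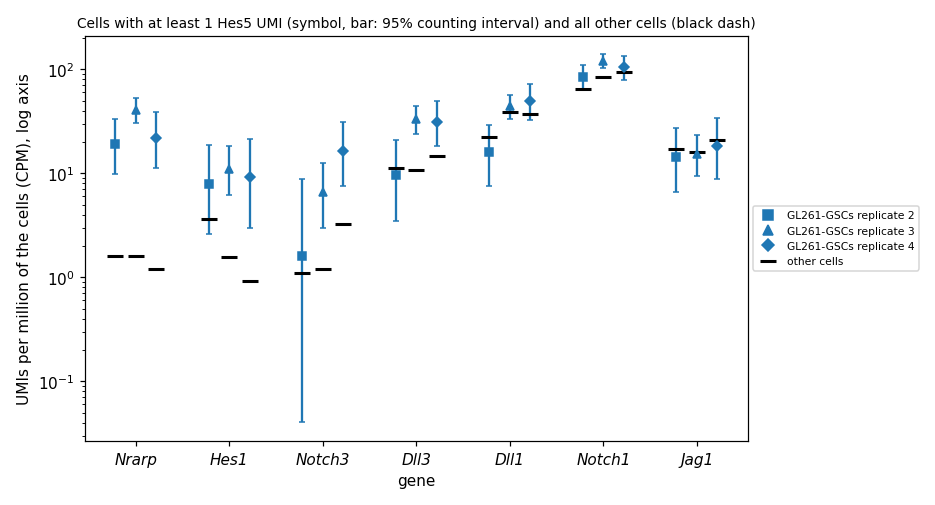
Level of 7 Notch genes (CPM over the cells, log axis) in cells of GL261-GSCs replicates 2, 3 and 4 with at least 1 Hes5 UMI (symbols, bars are 95% counting intervals) and in all other cells of the same library (black dashes). Nrarp lies well above the dash in all 3 libraries, while Dll1 and Jag1 lie near it.

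Id3, an inhibitor of basic helix-loop-helix factors that responds to BMP signals, led the other genes higher in Hes5-positive cells, at 140, 168 and 181 CPM beside 60.6, 19.7 and 21.8. Outside the 10 Notch genes, which were not ranked, the next were Isg15, an interferon-induced gene, Arl4a, Masp1 and Fabp7, a fatty acid binding protein of radial glia (ratios 1.53, 1.91 and 2.17). Id3 also led the other genes of GL261-GSCs cells with a Hes1, Nrarp or Notch3 UMI. It was among the leading genes of Dll3-positive GL261-GSCs cells too (ratios 1.87, 1.99, 3.19 and 2.12 in replicates 1 to 4). In GL261 replicates 1 and 2, Id3 stood at 816 and 746 CPM in cells without a Hes1 UMI, above its levels in Hes5-positive GL261-GSCs cells. In Notch3-positive cells of replicates 1 to 4 the Id3 ratios were 3.14, 2.57, 7.02 and 5.74. Olig2, a factor of the oligodendrocyte lineage, was at 1.04, 1.05 and 1.01 times the level of other cells in Hes5-positive cells. Dll3-positive cells of GL261-GSCs carried more H19, an imprinted non-coding RNA, with ratios of 6.51, 11.9, 7.75 and 6.60 in replicates 1 to 4. In GL261 the genes that led in Hes1-positive cells were the stress-response genes Gadd45b (ratios 1.94 and 1.39) and Gadd45g, with Id1, Id3 and Ier5l. Cells were not called for doublets, and their part in these values was not tested.

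Pairs of Notch genes in the same thinned cell were counted where chance predicted at least 20 cells, which GL261-GSCs replicate 1 did not reach for any pair. Notch1 and Notch2 were seen together 1.79 and 1.39 times as often as independent detection gives in the GL261 replicates, and 1.40, 1.61 and 1.30 times in GL261-GSCs replicates 2 to 4. Notch1 and Dll1, receptor and ligand, were seen together 1.18, 1.32 and 1.24 times as often in these 3 libraries, in 40, 151 and 90 cells. For Notch1 and Dll3 the ratio was 0.887 in replicate 3 and 1.11 in replicate 4, from 28 and 27 cells. At full depth the mean ratio went from 1.499 to 1.19 for Notch1 and Notch2 and from 1.25 to 1.14 for Notch1 and Dll1. Notch1 and Jag1 were seen together 1.33 and 1.25 times as often in GL261 and 1.08, 1.36 and 1.31 times in GL261-GSCs replicates 2 to 4, and Notch2 and Dll1 1.56 times in replicate 3. Ratios above 1 were thus seen for several pairs and were not particular to Notch1 and Dll1. The mitotic spindle gene Aspm was 1.52, 1.53, 1.86 and 1.76 times as high in Notch1-positive as in other cells of GL261-GSCs replicates 1 to 4 at full depth, and 1.31, 1.22, 1.32 and 1.24 times in Dll1-positive cells. Genes of mitosis (Aspm, Cenpf and Mki67 for both receptors, Hmmr, Cenpf and Cenpe for Jag1) were also among the 5 that led in Notch1-, Notch2- and Jag1-positive GL261-GSCs cells. In GL261 all 5 that led in Notch1-positive cells were of mitosis (Aspm with ratios of 1.94 and 1.72, Cenpf, Cenpe, Cdc20 and Cenpa). Aspm was also among the 5 of Notch2-positive GL261 cells, while the 5 of Jag1-positive GL261 cells held no gene of mitosis. The part of mitosis genes in these ratios was not tested.

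Of 54 other genes of the pathway, 46 passed the filter on low counts and 19 were called, with 10 rises and 9 falls. Over all genes tested 29.9% were called, with 15.8% higher in GL261-GSCs and 14.1% lower. The median log2 fold change of the 46 was -0.05. Without GL261 replicate 1 or replicate 2, fewer of them and fewer of all genes were called. The O-glycosylation enzymes Pofut1 and Poglut1 (edgeR adjusted p = 0.392 and 0.541) and the ubiquitin ligase Mib1, which activates ligands (0.0625), were not called. The remaining receptor, Notch4, known from endothelium, had 7.11 and 6.39 CPM in GL261 and 1.21, 1.21, 1.20 and 1.37 CPM in GL261-GSCs. Notch4 fell by 2.43 on the log2 scale (SE 0.20), with an edgeR adjusted p of 3.68e-04. Of the 5 endothelial markers Cldn5 was at 0 in all libraries, and the 5 summed to 0.895 and 1.64 CPM in GL261 and to 0.394 to 0.888 CPM in GL261-GSCs. Pecam1 was not called, while Cdh5, with 49 UMIs in GL261 and 1 in GL261-GSCs, was called lower (edgeR adjusted p = 0.00176). Their part in the Notch4 value was not tested.

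Both other canonical ligands were higher in GL261-GSCs. Jag2, a Jagged ligand, had 0.889 and 0.414 CPM in GL261 and 6.49, 3.80, 10.2 and 12.1 CPM in GL261-GSCs, a log2 fold change of 3.64 (SE 0.62, edgeR adjusted p = 0.00632). Without GL261 replicate 1 the change of Jag2 was 4.28, and without GL261 replicate 2 its call was lost (adjusted p = 0.0643). Dll4, the ligand of vessel sprouting, was counted 7 times in GL261 and 104 times in GL261-GSCs, with a log2 fold change of 2.81 (SE 0.67, edgeR adjusted p = 0.0205). The Dll4 call was lost without GL261 replicate 1 (change 3.48, adjusted p = 0.0885) and without replicate 2 (2.37, adjusted p = 0.160). Dner, a neuronal transmembrane protein described as a non-canonical ligand, gave 3 UMIs over both GL261 libraries and 15225 over GL261-GSCs. Its levels were 27.4, 37.2, 81.9 and 115 CPM in GL261-GSCs replicates 1 to 4, and the ratio of summed levels was 2547 (95% counting interval 871 to 12353). The neuron markers Rbfox3, Snap25 and Syt1, nearly all of it Syt1, summed to 1.15, 12.5, 51.6 and 78.2 CPM in the same libraries and to at most 0.0331 CPM in GL261, and their part in the Dner value was not tested. Dlk2, a further non-canonical ligand and named after its values were seen, had the opposite direction and fell by 3.40 on the log2 scale (SE 0.38, edgeR adjusted p = 0.00119).

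The fringes, glycosyltransferases that bias receptors towards Delta-like or Jagged ligands, included 2 that changed in opposite directions. Lfng had 10.98 and 12.6 CPM in GL261 and 2.38, 1.37, 0.650 and 0.632 CPM in GL261-GSCs, and fell by 3.22 on the log2 scale (SE 0.53, edgeR adjusted p = 0.00543). Mfng had 0.755 and 0.530 CPM in GL261 and 14.0, 17.0, 30.4 and 20.3 CPM in GL261-GSCs, a log2 fold change of 4.98 (SE 0.44, edgeR adjusted p = 4.78e-04). Rfng had 20.2 and 21.8 CPM in GL261 and 17.3 to 20.9 CPM in GL261-GSCs and was not called (adjusted p = 0.610). Neither Lfng nor Mfng overlapped between the groups.

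**Figure D5:**
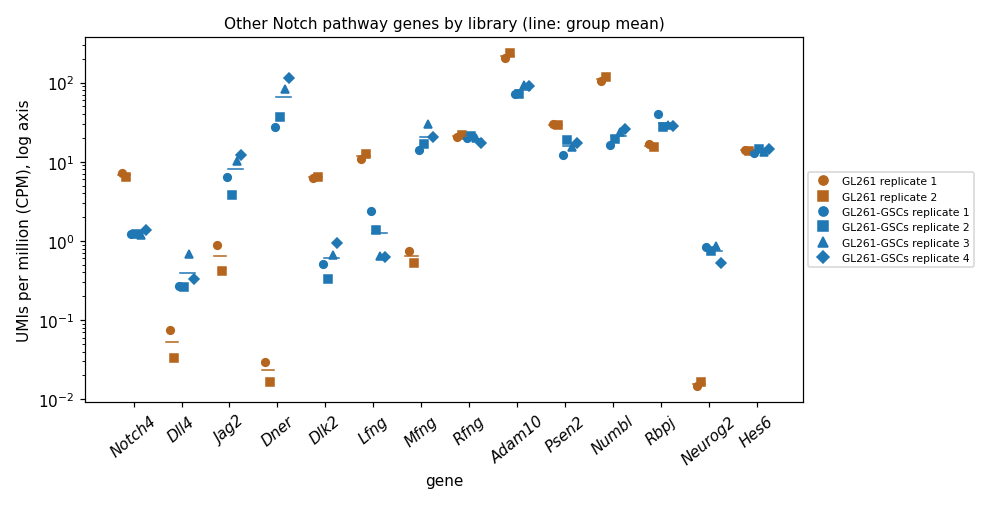
Levels of 14 other Notch pathway genes (CPM, log axis) in the 6 libraries, with a line at each group mean. Lfng, Notch4, Dlk2, Adam10 and Numbl lie lower in GL261-GSCs, Mfng, Jag2, Dll4, Dner and Neurog2 lie higher, and Rfng and Hes6 overlap.

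Between receptor and nucleus, Adam10, Numbl and Psen2 were lower in GL261-GSCs. The sheddase Adam10 had 205 and 234 CPM in GL261 and 72.3, 72.5, 92.2 and 90.0 CPM in GL261-GSCs, and fell by 1.43 on the log2 scale (SE 0.15, edgeR adjusted p = 9.51e-04). Numbl, related to the Notch inhibitor Numb, fell by 2.37 (SE 0.20), while Numb itself was not called (adjusted p = 0.202). Of 7 gamma-secretase genes 3 were called, beside 29.9% of all genes tested. Psen2, a catalytic subunit, fell by 0.90 (SE 0.19). Aph1b and Aph1c, named after their values were seen, had log2 fold changes of 0.57 (SE 0.17) and 1.75 (SE 0.35). The Psen2 call was lost without either GL261 library, that of Aph1c without GL261 replicate 1, and that of Aph1b when any of GL261 replicate 1, GL261 replicate 2, GL261-GSCs replicate 2 or GL261-GSCs replicate 3 was left out, or with no filter on low counts (adjusted p = 0.0947).

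In the nuclear complex, Rbpj had 16.8 and 15.2 CPM in GL261 and 39.7, 27.4, 28.9 and 28.2 CPM in GL261-GSCs, a log2 fold change of 0.96 (SE 0.20, edgeR adjusted p = 0.0122) that was not called when either GL261 library was left out. The calls of the Mastermind coactivators lay close to the threshold. Maml3 had a log2 fold change of 0.58 (SE 0.16, edgeR adjusted p = 0.0363), while Maml1 and Maml2, named after their values were seen, fell by 0.55 (SE 0.17) and 0.69 (SE 0.20). With 1 library left out, Maml1 was not called in any of 6 fits, Maml2 not in 5 and Maml3 not in 4, including both fits without a GL261 library. Of 10 fits to all 6 libraries, 5, 4 and 2 did not call Maml1, Maml2 and Maml3. The receptor regulator Dtx1, named after its values were seen, had a log2 fold change of 2.42 (SE 0.53), not called without either GL261 library.

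Neurog2, a proneural factor of the kind that Hes repressors hold back and named after its values were seen, gave 2 GL261 UMIs and 196 GL261-GSCs UMIs, a ratio of summed levels of 49.2 (95% counting interval 13.4 to 409). Its levels were 0.834, 0.745, 0.850 and 0.522 CPM in GL261-GSCs replicates 1 to 4. Hes6, which counteracts Hes1, had 14.2 and 13.6 CPM in GL261 and 12.9 to 14.5 CPM in GL261-GSCs and was not called (log2 fold change -0.02, adjusted p = 0.925). Hey2, a relative of Hey1, gave 1 UMI in all, in GL261.

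Genes whose centred log2(CPM + 1) over the 6 libraries lay nearest to a Notch gene were sought among 10201 genes for the receptor, ligand and target with the most UMIs. Nearest to Notch1 were Dpysl2, with a root mean square difference of 0.0504, and Grik5 (0.0715). Nearest to Jag1 were Pianp (0.0748) and Isg20 (0.0941), and nearest to Hes1 were Fgf2 (0.251) and Ccdc9b (0.253). Fgf2, a growth factor of neural progenitors, had 14.9 and 16.0 CPM in GL261 and 0.607, 1.10, 0.575 and 0.275 CPM in GL261-GSCs. As for Hes1, the highest of the GL261-GSCs libraries was replicate 2 and the lowest replicate 4, while the order of the libraries in between differed. Fgf2 was picked because its values over these same libraries lay near those of Hes1. The shared highest and lowest library is therefore no separate likeness.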

How the data were processed

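Unfiltered UMI counts per gene and barcode were deposited by the authors. Per the file headers, Cell Ranger 4 wrote them. The genome build is mm10 per the submitters' processing notes. Of 54446 gene identifiers, 54409 matched GENCODE M21 (GRCm38) without version, which gave the coordinates. Groups and replicate numbers came from the sample titles.

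Of each library's 3000 largest barcodes the 99th percentile UMI count was taken, and a barcode was called a cell with 10% or more of it, at least 500 genes and under 10% mitochondrial UMIs. UMIs were summed over the cells of each library and fitted with edgeR 4.0.16 (glmQLFit, glmQLFTest, TMM, filterByExpr, Benjamini-Hochberg, 2-sided) in R 4.3.3, over all 6 libraries without a block. The common dispersion was 0.0969. The SE is the log2 fold change divided by the square root of F, not a direct estimate of error. Fitted fold changes of genes with 3 or fewer UMIs in a group are not printed, although counts of calls and of alternatives include them. A limit for 0 cells is 3 cells of the total. CPM within cells that carry a gene used those cells' own UMIs without TMM. Genes leading in such cells needed at least 20 cells and 10 UMIs in each library, left out the 10 Notch genes and unnamed gene models (symbols starting with Gm and a digit or ending in Rik), and were ranked by the smallest log2 ratio over libraries, with 20 CPM added. Free RNA was taken as the median UMIs of barcodes with at least 100 and under 1000 UMIs, at their composition. Exact permutation tests used scipy 1.17.1. On simulated data for this comparison (18439 genes, 200 changed by 2 on the log2 scale) edgeR recovered 164, with 12 false calls among 176.

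The 10 genes and the pathway and marker lists were chosen with earlier results of these data known. Named pathway genes were the 5 largest called rises and 5 largest called falls with an average log2 CPM of at least 2, with Rbpj, Hes6, Dll4, Jag2, Notch4, Lfng and Hey2. Some genes that the rule names are not reported here, although counts over the list include them. Alternatives were DESeq2 1.42.0, limma-voom (limma 3.58.1), other scalings, no filter, a replicate block, other cell calling, other thinning and leaving out each library. The RefSeq protein sequences were not used here.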

Additional observations from a re-analysis of the deposited data

Results flagged for a closer look

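Within the 4 GL261-GSCs libraries, 66 sets of values (levels of the 10 genes and of 46 other pathway genes, and shares of cells for the 10) were checked for a library far from the other 3, by a rule under which chance marks about 1 in 20 groups. The values that stood apart, among the genes reported here, were these. Notch2 in replicate 2 had 18.1 CPM, beside 14.0 to 14.4 in the other 3. Notch4 in replicate 4 had 1.37 CPM. Dll4 in replicate 3 had 0.688 CPM. Aph1a, a gamma-secretase subunit, had 86.3 CPM in replicate 2. Rbpj in replicate 1 had 39.7 CPM, its highest GL261-GSCs value.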

How the results depend on the processing

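Of the alternative values of the 10 genes, 142 kept direction and side of the threshold, 6 kept direction and lost the call, 1 gained a call and 1 changed sign. For other pathway genes named or called these numbers were 253, 42, 0 and 5. Differences between the groups in shares of cells changed by under 1 SD of the GL261-GSCs libraries in 71 alternatives. In 19 they changed by more without a change of sign, all but 5 of these without thinning or with 1000 UMIs per cell. With 1000 UMIs per cell the differences that changed by more were smaller, as for Jag1, from -5.89 to -2.80 percentage points. Without thinning, co-detection ratios moved by over 1 SD of the libraries in 4 of 7 pairs. Between 6 and 9 of the 10 were called under every alternative. With GL261 replicate 1 or 2 left out, 6 were called, with the spread of the 1 remaining GL261 library taken from the other group. Other pathway genes called fell to 10 and 9 and all genes called to 1972 and 1817 in these fits. Over all fits that left out 1 library, 9 to 18 pathway genes and 1817 to 6193 genes were called. Scaling by total UMIs moved the median of all genes on the log2 scale from 0.04 to 0.18 and the split of all calls from 2920 higher and 2594 lower to 3491 and 2034, with the same 4 and 4 among the 10 genes. Hes6, not called under any setting, changed sign with that scaling (0.13), with cells of at least 5000 UMIs (0.034), and without GL261 replicate 1, GL261-GSCs replicate 1 or GL261-GSCs replicate 3, with values from -0.056 to 0.024 over all fits that left out 1 library.

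With the replicate number as a block, Notch1 changed sign (-0.24, not called) and Hey1 was called (1.87, edgeR adjusted p = 0.0176). Notch3, Dll1 and Hes5 were smaller (2.51, 6.40 and 3.93), and 9 of the 10 genes and 23 pathway genes were called. GL261-GSCs replicates 3 and 4 have no GL261 library of their number, so each is absorbed by its own block. The group difference of this fit thus comes only from replicates 1 and 2 of each group. Deviations of same-numbered libraries from their group means had correlations of -0.0264 and 0.0367 for numbers 1 and 2. With 2 GL261 libraries, the deviation of 1 is that of the other with the sign reversed. These correlations therefore cannot decide if same-numbered libraries were paired. With at least 2 Hes5 UMIs as the limit, chosen after seeing the data, the mean Nrarp ratio of Hes5-positive cells rose from 18.5 to 41.2. Genes with few UMIs in GL261 (Dll1, Notch3, Hes5, Hey1, Dll4, Dner and Neurog2) are limited by depth.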
